A study of Mus musculus with 6 samples.

Results

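The 39 mouse Hox genes, those whose gene name is Hoxa, Hoxb, Hoxc or Hoxd followed by a number, were taken from a table of read counts for 24391 genes in artery RNA. They encode homeodomain transcription factors and lie in 4 clusters. In the mm9 annotation of the table, the Hoxa cluster held 11 genes (chromosome 6), the Hoxb cluster 10 (chromosome 11, 96055675 to 96229567), the Hoxc cluster 9 (chromosome 15, 102751562 to 102867283) and the Hoxd cluster 9 (chromosome 2, 74506367 to 74603199).

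RNA was sequenced from 3 wild type (WT) and 3 Col15a1 -/- (KO) mice on a C57BL/6 background, all fed a Western diet for 18 weeks. The vessel is given by the labels as BCA, the usual short form of the brachiocephalic artery, and its tissue as atherosclerosis lesion with mixed cell types. Col15a1 encodes the alpha chain of collagen XV. The series title places the deletion in smooth muscle cells, but the labels give no Cre driver, no age and no further allele, so none can be stated for either group.

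Hox genes are numbered into paralog groups by sequence, and within a cluster the low numbers lie at the 3′ end and the high numbers at the 5′ end. In the embryo low-numbered genes are active up to anterior levels and high-numbered genes only at posterior levels, and adult mesenchymal and vascular cells keep part of this code as a record of their position. The brachiocephalic artery derives from the pharyngeal arch region, where smooth muscle comes largely from neural crest, whereas smooth muscle of the descending aorta comes largely from somites. Hox proteins bind DNA with Pbx, Meis and Pknox partners, and several 3′ Hox genes are classical targets of retinoic acid.

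The paralog group 4 genes Hoxb4, Hoxc4 and Hoxd4 are shown by the 250 bases before their start sites, because the results for paralog group 4 differed between clusters. The sequences are RefSeq promoters on GRCm38.p6, a build other than that of the counts, and run 5′ to 3′. The capitals mark TGACCT, the reverse complement of AGGTCA, the letters of a retinoic acid receptor half-site.
Hoxb4, chr11:96318017-96318266, + strand: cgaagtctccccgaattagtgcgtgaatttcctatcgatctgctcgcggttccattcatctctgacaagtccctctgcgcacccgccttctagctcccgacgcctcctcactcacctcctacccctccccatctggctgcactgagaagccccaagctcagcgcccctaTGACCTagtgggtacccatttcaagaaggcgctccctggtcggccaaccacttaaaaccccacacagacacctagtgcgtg
Hoxc4, chr15:103034145-103034394, + strand: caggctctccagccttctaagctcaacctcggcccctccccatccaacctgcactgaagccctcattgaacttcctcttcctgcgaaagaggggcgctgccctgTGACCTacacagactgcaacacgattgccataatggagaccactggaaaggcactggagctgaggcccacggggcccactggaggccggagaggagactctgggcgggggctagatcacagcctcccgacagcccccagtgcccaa
Hoxd4, chr2:74721728-74721977, + strand: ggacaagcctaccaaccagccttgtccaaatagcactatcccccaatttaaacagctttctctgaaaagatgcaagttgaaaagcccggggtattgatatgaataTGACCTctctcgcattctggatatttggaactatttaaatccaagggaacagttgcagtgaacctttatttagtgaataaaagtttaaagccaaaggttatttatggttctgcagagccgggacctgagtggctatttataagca
Each window held 1 match, ending 75, 140 and 139 bases before the start site of Hoxb4, Hoxc4 and Hoxd4. On either strand the 6 letters occurred in 14% of all 32851 promoters in the RefSeq table and in 6 of the 24 Hox promoters there, which belong to 22 of the 39 genes. A match is a description of the sequence and not evidence of binding. The 6 genes with a promoter in the table that were also detected in every library had a median of 10 CpG dinucleotides in the window (range 3 to 28), and the 16 other Hox genes with a promoter had 13 (3 to 35). These ranges overlap almost completely, so CpG content did not separate the 6 detected genes from the 16 others. Some of the 16, such as Hoxc4, had counts in all 6 libraries, so silent genes were not compared by themselves.

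The libraries held 22223584 to 26982005 counts each, so 3 counts, the limit that a count of 0 allows, came to 0.111 to 0.135 CPM (counts relative to library size, scaled to 1e6). Of the genes with 1 to 20 counts in a library, 67.6% to 71.3% had an even count, and the counting command set no option for paired reads, so such limits cover counting error only and would be too narrow if both mates of a pair were counted. The deleted gene had 12629, 12111 and 12973 counts in WT 1 to 3 and 4487, 4542 and 2307 in KO 1 to 3. Col15a1 fell by 1.62 on the log2 scale (SE 0.33), with no overlap of the groups, at an edgeR adjusted p of 0.587 and a DESeq2 adjusted p of 0.00219. Smooth muscle markers summed to 5891 to 15499 CPM over the 6 libraries, endothelial markers to 940 to 1676 and macrophage markers to 661 to 2306. Fibroblast markers summed to 3206 to 7309 CPM, skeletal muscle markers to 7.92 to 326 and cardiac muscle markers to 11.6 to 127. The labels also name epithelial cells, whose markers summed to 13 to 22.9 CPM. The 10 sympathetic neuron markers stood apart in WT 2 (3243 CPM summed) and KO 3 (6141 CPM), against 198 to 329 CPM in the other 4 libraries, and values without these 2 libraries are given beside the results that rest on them.

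The Hox genes detected in the artery lay mostly toward the 3′ ends of the Hoxa and Hoxb clusters. With at least 10 counts in each of the 6 libraries as the criterion, 12 of the 39 genes (30.8%) were detected, against 14838 of all 24391 genes (60.8%). They included Hoxa2 to Hoxa5, Hoxb2 to Hoxb6, Hoxd4 and Hoxd8. Of paralog groups 1 to 6, 11 of 18 genes were detected, and of groups 7 to 13, 1 of 21, which was Hoxd8. The 12 detected genes comprised 5 of 11 in the Hoxa cluster, 5 of 10 in Hoxb, 0 of 9 in Hoxc and 2 of 9 in Hoxd.

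At the 5′ ends the clusters were close to silent. Of the 16 genes in paralog groups 9 to 13, which specify lumbar, sacral and limb levels, none was detected by this criterion, 12 had at most 3 counts in every library and 8 had none at all. Those 8 were Hoxa11, Hoxa13, Hoxb13, Hoxc11, Hoxc12, Hoxd11, Hoxd12 and Hoxd13. Hoxc9 had 1 count and Hoxc10 and Hoxd10 had 2 counts in a single KO library each, and Hoxc13 had 2 counts in WT 2. Hoxa10 was the exception in groups 10 to 13, with 2, 12 and 6 counts in WT 1 to 3 and 9, 4 and 2 in KO 1 to 3. Hoxa9 (2 to 18), Hoxb9 (0 to 8) and Hoxd9 (2 to 14) had low counts short of the criterion. The highest-numbered genes that met it differed by cluster, being Hoxa5, Hoxb6 and Hoxd8.

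At the 3′ ends of their clusters, Hoxb1 and Hoxd1 were also near or at 0. Hoxb1, which acts in the hindbrain, had 2 counts in WT 2 and 0 in the other 5 libraries, and Hoxd1 had 0 in all 6. The remaining genes lay between these extremes, with 10 or more counts in some libraries only or 4 to 9 at most: Hoxa6, Hoxa7, Hoxb7, Hoxb8, Hoxc4, Hoxc5, Hoxc6, Hoxc8 and Hoxd3, besides the 4 group 9 and 10 genes named above.

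**Figure D1:**
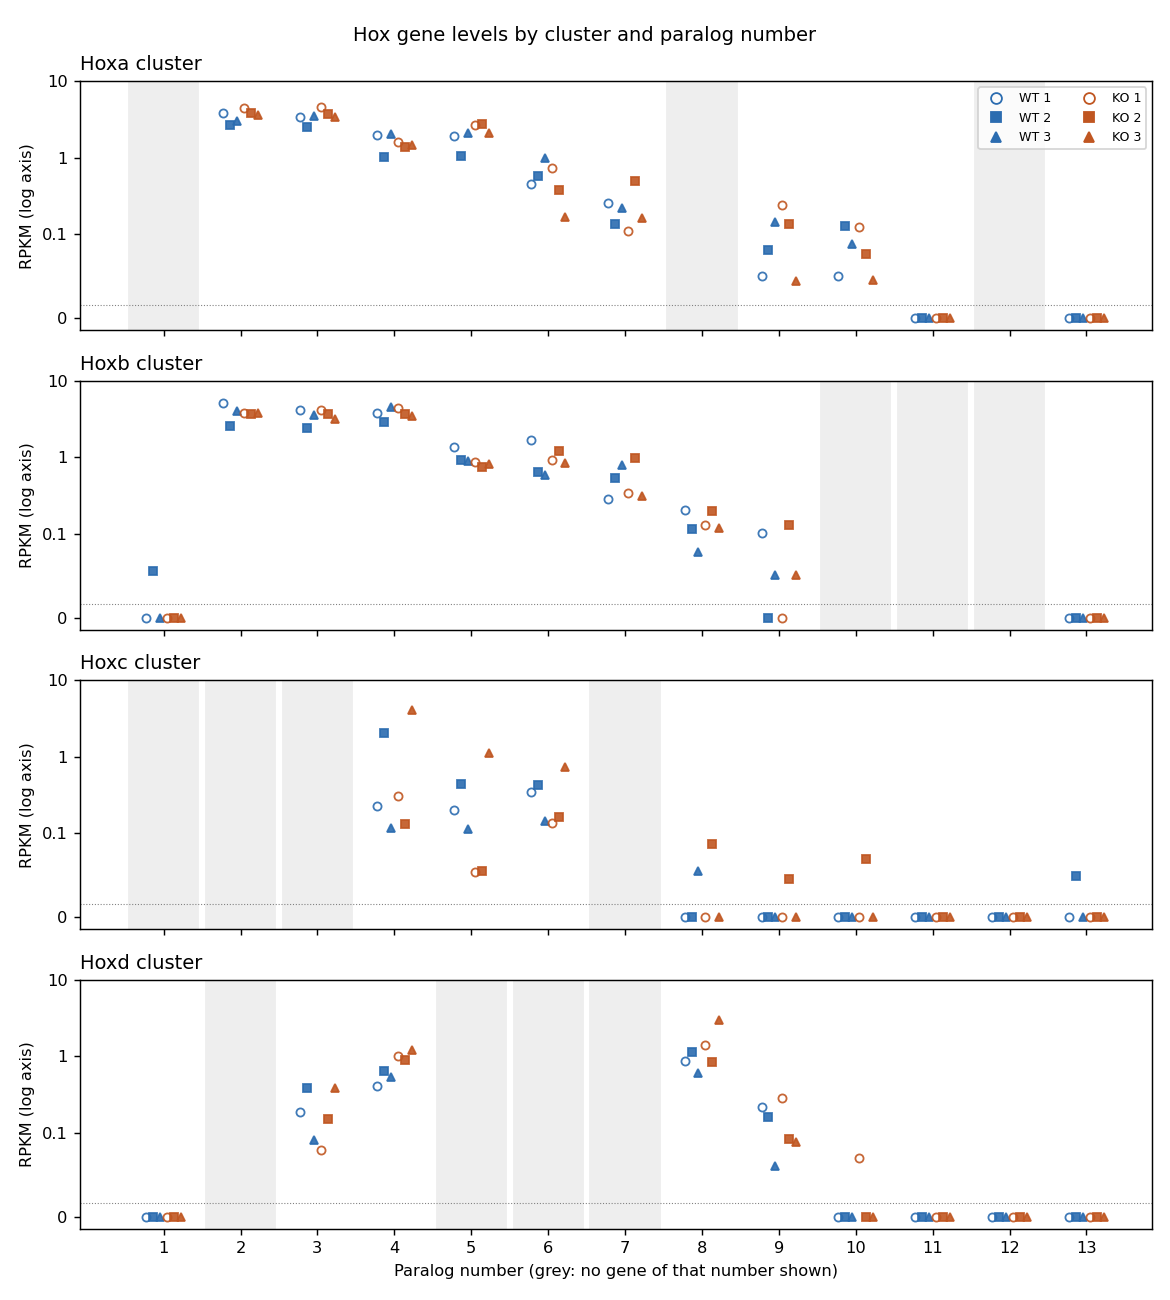
Level of each Hox gene (RPKM, log axis, with values of 0 drawn below the dotted line) against paralog number, 1 panel per cluster, with 1 point per library and grey where no gene of that number is shown. Hoxa2, Hoxa3, Hoxb2, Hoxb3 and Hoxb4 have the highest means, and groups 11 to 13 lie at or near 0. WT 2 and KO 3 separate from the other libraries at Hoxc4.

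Levels between genes were compared per length, as RPKM, the CPM divided by the exon length in kilobases, with TMM scaling. The most abundant were Hoxb2 (mean of 6 libraries 3.79 RPKM), Hoxb4 (3.75), Hoxa2 (3.58), Hoxa3 (3.53) and Hoxb3 (3.53), all from paralog groups 2 to 4, which pattern the hindbrain, the pharyngeal arches and the neck. These levels are moderate, at percentiles 55.9 to 56.8 of all genes in the table. None of the 5 separated from its neighbours in the order, and every neighbouring pair in the order of levels overlapped in its range over libraries. The same 5 genes filled the first 5 places in WT 1 to 3, KO 1 and KO 2, and in KO 3 Hoxc4 was first and 4 of the 5 followed it.

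Hoxb2, which patterns rhombomeres and the second arch, had 5.02, 2.52 and 3.99 RPKM in WT 1 to 3 and 3.81, 3.62 and 3.80 in KO 1 to 3. Hoxb4, known also for its part in blood stem cells, had 3.74, 2.84 and 4.52 RPKM in WT and 4.34, 3.66 and 3.41 in KO. Hoxb3 had 4.07, 2.44 and 3.59 RPKM in WT and 4.17, 3.71 and 3.18 in KO. WT 2 was the lowest library for all 3, and the groups overlapped.

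Hoxa2, the selector gene of the second pharyngeal arch, had 3.82, 2.71 and 3.00 RPKM in WT 1 to 3 and 4.49, 3.81 and 3.64 in KO 1 to 3. Hoxa3, required for derivatives of the third arch such as the carotid arteries, thymus and parathyroids, had 3.40, 2.54 and 3.53 RPKM in WT and 4.65, 3.69 and 3.40 in KO. Of its exon bases 16.4% were shared with the antisense transcripts Hoxaas2 and Hoxaas3, where reads were left out as ambiguous, so its level per length is a low estimate. Here too WT 2 was lowest, and the KO and WT values of both genes overlapped.

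In the Hoxa and Hoxb clusters, genes from group 5 upward had lower mean levels than those of groups 2 and 3. Hoxa5, which patterns the neck and upper thorax and the lung, averaged 2.09 RPKM and lay below Hoxb3 in 6 of 6 libraries. Hoxa4 averaged 1.58, Hoxb6 0.974 and Hoxb5 0.933 RPKM. Hoxb6, the highest-numbered Hoxb gene detected, had 1.69, 0.636 and 0.585 RPKM in WT 1 to 3 and 0.913, 1.19 and 0.835 in KO 1 to 3, the highest and the lowest value both being WT. Beyond these came Hoxa6 (0.552), Hoxb7 (0.537), Hoxa7 (0.229), Hoxb8 (0.138), Hoxa9 (0.106), Hoxa10 (0.0725) and Hoxb9 (0.0480 RPKM). The range of Hoxa5 over libraries lay just above that of Hoxa6 (lowest Hoxa5 1.06, highest Hoxa6 0.995 RPKM), a gene with 3 to 18 counts. The ranges of Hoxb4 and Hoxb5 were separate too (lowest Hoxb4 2.84, highest Hoxb5 1.37 RPKM).

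Summed over all 39 genes, the Hox level was 28.3 ± 3.75 RPKM in WT and 32.8 ± 2.57 in KO (SD, n = 3 each), with the lowest sum in WT 2 (24.1) and the highest in KO 3 (34.8). The Hoxb cluster gave 45% of the sum and Hoxa 41.1%, as means over 6 libraries, with Hoxd at 7.89% and Hoxc at 6.02%. The Hoxc share was 3.79% without KO 3 and 1.71% without both WT 2 and KO 3. By paralog number, groups 1 to 3 gave 50.6%, groups 4 to 8 gave 48.1% and groups 9 to 13 gave 1.30% (0.442% to 2.07% over libraries). Groups 2 to 5, a range chosen after the values were seen, gave 81.0% to 83.9% of the sum in every library, WT 2 and KO 3 included.

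**Figure D2:**
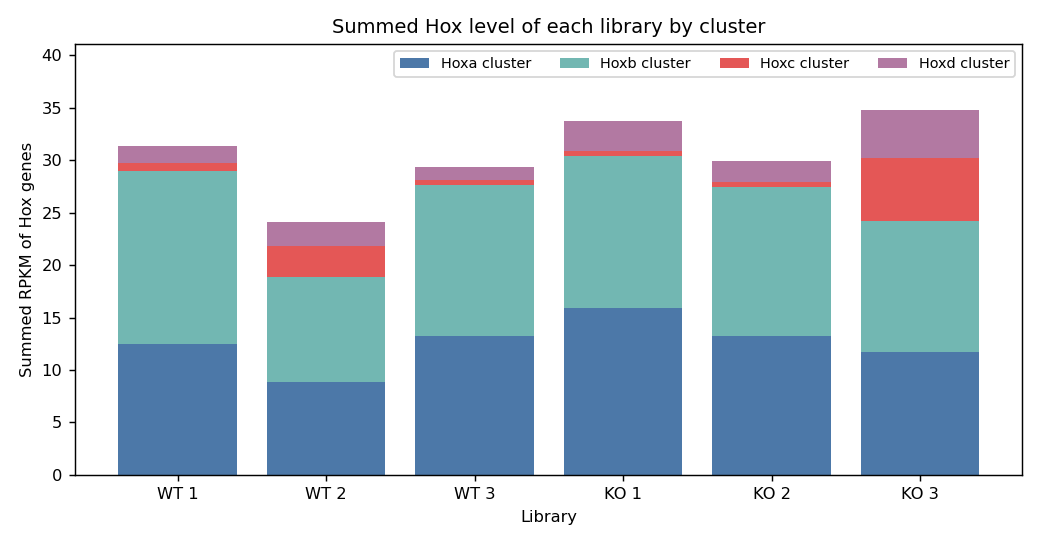
Summed RPKM of the Hox genes in each library (bars from 0), split by cluster. Hoxa and Hoxb make up most of each bar, and the Hoxc part is visible mainly in WT 2 (12.1% of the sum) and KO 3 (17.1%).

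The Hoxc cluster did not follow the pattern of Hoxa and Hoxb. Its 9 genes together had 34, 178 and 22 counts in WT 1 to 3 and 21, 21 and 314 in KO 1 to 3, and all but 0 to 7 of these per library came from Hoxc4, Hoxc5 and Hoxc6. These 3 lie side by side at the 3′ end of the cluster and are active at cervical and upper thoracic levels. The counts stood in WT 2 and KO 3, one library of each genotype.

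Hoxc4 had 0.229, 2.03 and 0.117 RPKM in WT 1 to 3 and 0.304, 0.132 and 4.12 in KO 1 to 3, a range of 35.2-fold. Hoxc5 had 0.200, 0.443 and 0.113 RPKM in WT and 0.0316, 0.0320 and 1.11 in KO. Hoxc6 had 0.343, 0.422 and 0.146 RPKM in WT and 0.135, 0.164 and 0.743 in KO. For all 3 KO 3 was the highest library and WT 2 the next, although for Hoxc6 WT 1 came close to WT 2. Hoxb4, of the same paralog group as Hoxc4, ranged over 1.59-fold, so the Hoxc4 to Hoxb4 ratio of RPKM was 0.716 in WT 2 and 1.21 in KO 3 against 0.0259 to 0.0702 in the other 4 libraries.

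In the Hoxd cluster Hoxd3, which acts in the upper cervical vertebrae, was also highest in these 2 libraries, at nearly the same level in both, with 0.188, 0.382 and 0.0799 RPKM in WT 1 to 3 and 0.0594, 0.150 and 0.380 in KO 1 to 3. Hoxd8, the highest-numbered Hox gene detected in every library, had 0.864, 1.12 and 0.609 RPKM in WT and 1.42, 0.849 and 2.96 in KO, with KO 3 highest and KO 1 next. Mean levels in this cluster were 0 for Hoxd1, 0.207 for Hoxd3, 0.777 for Hoxd4, 1.30 for Hoxd8 and 0.143 RPKM for Hoxd9. The highest mean of the Hoxd cluster thus lay further 5′ than that of Hoxa or Hoxb. WT 2 and KO 3 were the highest libraries for 4 of the 20 Hox genes with enough counts to test (Hoxc4, Hoxc5, Hoxc6 and Hoxd3) and for 22.2% of all 15937 genes tested, so the share among Hox genes was near that of genes in general.

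The same 2 libraries were highest for 10 of 10 sympathetic neuron markers and for 7 of 8 Schwann cell markers. Th, which makes the precursor of noradrenaline, had 13.2, 173 and 15.5 RPKM in WT 1 to 3 and 13.5, 10.1 and 489 in KO 1 to 3. Slc6a2, the noradrenaline transporter, ranged from 14.3 to 25.2 RPKM in 4 libraries and reached 245 in WT 2 and 404 in KO 3. Summed Schwann cell markers were 257 CPM in WT 2 and 400 in KO 3 against 77.5 to 169 CPM elsewhere. Sympathetic ganglia also carry Hox genes, and the part of these neurons in the Hoxc and Hoxd values was not tested. In bulk RNA, fewer cells of a type and less RNA per cell cannot be told apart.

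**Figure D3:**
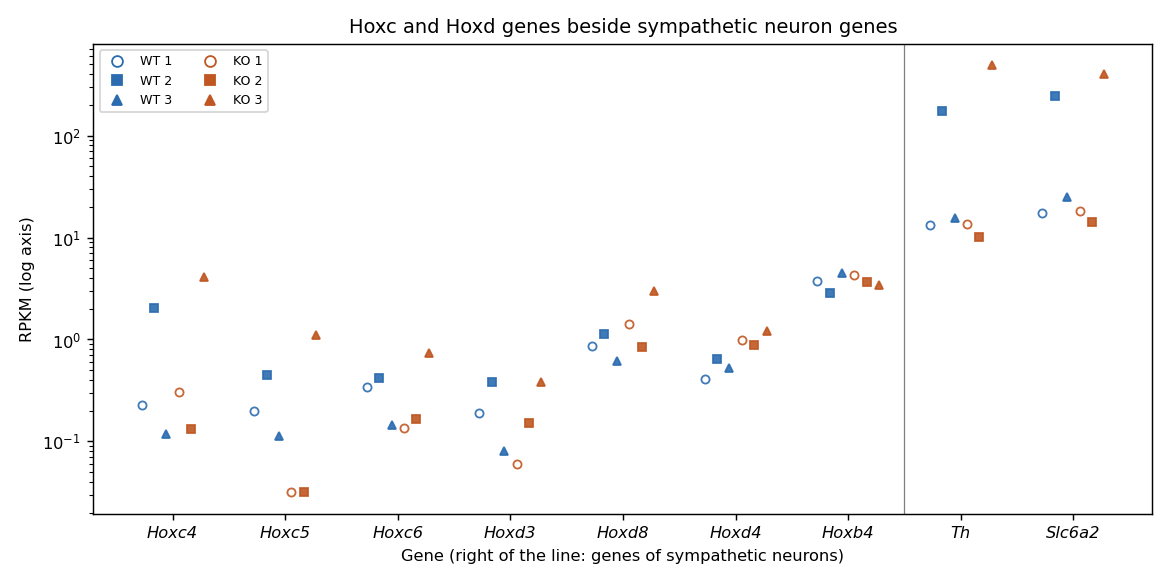
RPKM (log axis) of Hoxc, Hoxd and Hoxb4 genes and, right of the line, of 2 sympathetic neuron genes, 1 point per library. WT 2 (blue square) and KO 3 (orange triangle) are the highest libraries for Hoxc4, Hoxc5, Hoxc6, Hoxd3 and the neuron genes, whereas Hoxb4 is level across libraries.

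For the comparison of KO with WT, 20 Hox genes had enough counts to enter the edgeR fit over 15937 genes. No Hox gene passed an adjusted p of 0.05 in edgeR, where 0 genes of all tested (0%) passed, and none passed in limma-voom, where the share was also 0%. DESeq2 called 0 of the 20 against 0.395% of all genes (63). Among the genes named here it gave no adjusted p for Hoxa6, Hoxa9, Hoxc4, Hoxc6 and Hoxd3, so these could not be called. Without adjustment, 1 of the 20, Hoxd4, had an edgeR p under 0.05, against 8% of all genes (1275). The log2 fold change was above 0 for 14 of the 20 (median 0.17), against 60.9% of all genes (median 0.068). The 3 KO libraries lay wholly above or wholly below the 3 WT libraries for 3 of the 20 Hox genes and for 16.7% of all genes, so none of these counts set the Hox genes apart from the background.

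Hoxd4, of paralog group 4, had 0.409, 0.644 and 0.529 RPKM in WT 1 to 3 and 0.994, 0.887 and 1.20 in KO 1 to 3. All KO values lay above all WT values, as was the case for 8.33% of all genes. Its means were 0.527 ± 0.117 in WT and 1.03 ± 0.160 in KO (SD, n = 3 each). The log2 fold change was 0.96 (SE 0.27), at an edgeR adjusted p of 0.587. The estimate ran from 0.81 to 1.13 over 17 fits, with adjusted p from 0.249 (DESeq2) to 1.00, and was 0.99 without WT 2 and KO 3.

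Hoxa5 had 1.89, 1.06 and 2.08 RPKM in WT 1 to 3 and 2.66, 2.79 and 2.08 in KO 1 to 3. The groups did not overlap, but WT 3 and KO 3 agreed to the digits shown, and they overlapped with DESeq2-style size factors and upper-quartile scaling. Its log2 fold change was 0.58 (SE 0.31, edgeR adjusted p = 0.684). Hoxb5, its Hoxb paralog, had 1.37, 0.922 and 0.897 RPKM in WT and 0.864, 0.736 and 0.811 in KO, with all KO values below all WT values, as for 8.38% of all genes, although the groups overlapped when scaled to total counts. The log2 fold change of Hoxb5 was -0.40 (SE 0.26, edgeR adjusted p = 0.753), so these paralogs moved to opposite sides of 0 without passing the test.

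Hoxd8 had the largest estimate among the tested Hox genes, a log2 fold change of 1.01 (SE 0.51, edgeR adjusted p = 0.674), and its groups overlapped. Hoxc4 (0.92, SE 1.52), Hoxc5 (0.63, SE 1.34) and Hoxc6 (0.20, SE 0.78) had positive estimates that rested on KO 3. Without that library they were -1.87, -2.93 and -1.01, and without WT 2 the estimate for Hoxc4 was 3.13. Without both libraries Hoxc4 was 0.35, and Hoxc5 and Hoxc6 had too few counts for the fit. Hoxd8 was 0.62 without both, and ran from 0.39 to 1.33 over all fits. The low-count genes Hoxa6 (-0.66, SE 0.62; 3 to 18 counts) and Hoxa9 (0.73, SE 0.89; 2 to 18 counts) overlapped between groups.

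The 5 most abundant genes had SE of 0.20 to 0.27, close to those of the less abundant Hoxd4 (0.27) and Hoxb5 (0.26). Hoxb2 gave a log2 fold change of -0.037 (SE 0.27), Hoxb4 0.039 (SE 0.21), Hoxb3 0.13 (SE 0.23), Hoxa2 0.33 (SE 0.20) and Hoxa3 0.31 (SE 0.21). In simulated data of the same depth and spread the test recovered 54 of 100 genes changed 4-fold and 1 of 100 changed 2-fold. With 3 animals a group, 2-fold changes were thus mostly missed. The changed genes were drawn at random from all genes with a mean above 1 CPM, so these rates are not specific to Hox genes. The tested genes Hoxa6, Hoxa7, Hoxa9, Hoxb7, Hoxc5, Hoxc6 and Hoxd3 lay below that mean, so the rates do not cover their levels. The sums of 3 marker lists differed between the genotypes without overlap. Adipocyte markers summed to 233 to 771 CPM in WT and 968 to 1260 in KO, with 8 of 8 estimates above 0. Macrophage markers summed to 1996 to 2306 CPM in WT and 661 to 1440 in KO, with 8 of 8 below 0. Haematopoietic markers, a list that includes Meis1, summed to 892 to 979 CPM in WT and 444 to 758 in KO, with 5 of 7 below 0. No marker of these lists was at 0 in all libraries. Their part in the Hox values was not tested.

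**Figure D4:**
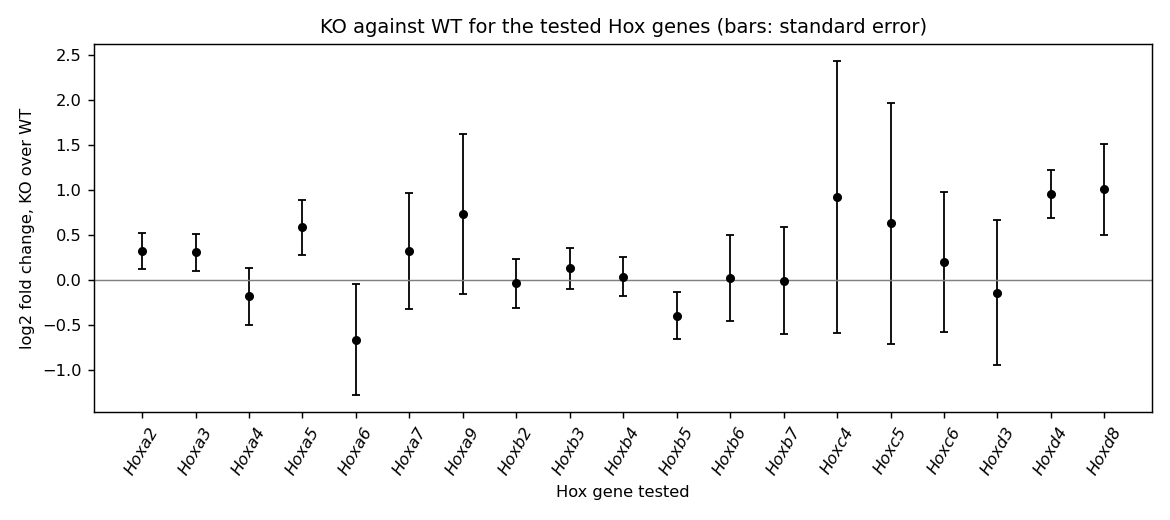
Log2 fold change of KO over WT for 19 of the 20 Hox genes tested, with points for the edgeR estimate and bars for its standard error. Hoxd4 and Hoxd8 lie near 1, Hoxb2, Hoxb3 and Hoxb4 lie near 0, and Hoxa2 and Hoxa3 lie at 0.33 and 0.31. The bars of Hoxc4 and Hoxc5 are the longest.

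Of the noncoding genes inside the clusters, 1 of 16 had at least 10 counts in every library. That gene, Hotairm1 at the 3′ end of the Hoxa cluster, had 12.8 ± 2.83 RPKM in WT and 14.3 ± 2.64 in KO (SD, n = 3 each), with 72 to 93 counts per library. Hotair in the Hoxc cluster, Hottip beyond Hoxa13 and Hoxa11os, antisense to Hoxa11, had 0 counts in all 6 libraries, as did Mir10b, Mir196a-1, Mir196a-2 and Mir196b. Mir10a, next to Hoxb4, had 1 to 8 counts per library, and Mir10b next to Hoxd4 had none. These libraries hold gene transcripts and not mature miRNAs, so the counts say nothing of the mature forms. The mature RefSeq sequences of this pair, shown because both share 1 seed (bases 2 to 8, in capitals), are:
miR-10a-5p: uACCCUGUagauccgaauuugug
miR-10b-5p: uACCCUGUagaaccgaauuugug
Of the 16 cluster noncoding genes that were in the data, 3 were tested and 0 called.

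Most genes beside the clusters were detected. Of 15 flanking genes in the table, 12 had at least 10 counts in every library, among them Tax1bp1 (57.5 ± 2.09 RPKM in WT, 61.1 ± 4.45 in KO) and Skap2 (53.3 ± 3.05 and 36.3 ± 10.1). Skap2 was lower in all KO libraries (log2 fold change -0.55, SE 0.22, edgeR adjusted p = 0.617). Of the 12 tested, 0 were called, with 11 estimates above 0 and 1 below. The groups did not overlap for 3 of the 12, against 16.7% of all genes. Evx2, at the 5′ end of the Hoxd cluster, had 0 counts and Evx1, at the 5′ end of the Hoxa cluster, 1 count in all. Ttll6, beside the Hoxb cluster, had 2 to 5 counts per library. The related Cdx and ParaHox genes, which act in the hindgut, pancreas and brain, had at most 2 counts in any library, with 4 of 6 at 0 throughout.

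By RPKM on the full exon length, most partners of Hox proteins were more abundant than any Hox gene. Of the partners, 7 of 9 had a mean above that of Hoxb2, the exceptions being Pbx3 (2.95) and Pbx4 (0.339). The level of Hoxa3, a low estimate as given above, was not corrected for this count. Of these 9 cofactor genes 8 had at least 10 counts in every library, the exception being Pbx4. Meis1 had 12.5, 10.9 and 10.1 RPKM in WT 1 to 3 and 13.1, 14.5 and 16.9 in KO 1 to 3, with KO above WT throughout, a log2 fold change of 0.41 (SE 0.14) and an edgeR adjusted p of 0.587. Of the 9, 6 estimates were above 0 and 3 below, with a median of 0.095, and 0 were called. All KO values lay above all WT values for 2 of the 9, Meis1 and Pknox1, against 8.33% of all genes tested.

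Retinoic acid genes were present at all steps of the pathway, and 0 of 17 tested were called, with 7 estimates above 0, 10 below and a median of -0.025. The groups did not overlap for 4 of the 17, against the 16.7% given above for all genes. The same 4 had an unadjusted edgeR p under 0.05, against 8% of all genes. Rarb, a receptor and itself a retinoic acid target, had 3.77, 3.56 and 2.90 RPKM in WT 1 to 3 and 4.77, 5.02 and 5.04 in KO 1 to 3 (log2 fold change 0.54, SE 0.14). Crabp2, which carries retinoic acid to the nucleus, had 12.9, 10.5 and 9.79 RPKM in WT and 4.02, 6.59 and 2.19 in KO (-1.38, SE 0.41). Aldh1a1, a retinaldehyde dehydrogenase, lay higher in all KO libraries (11 ± 3.19 in WT, 18.7 ± 2.37 RPKM in KO) and the receptor Rara lower (8.61 ± 0.886 and 6.5 ± 0.798). All 4 had an edgeR adjusted p of 0.587, and they lay on both sides of 0.

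**Figure D5:**
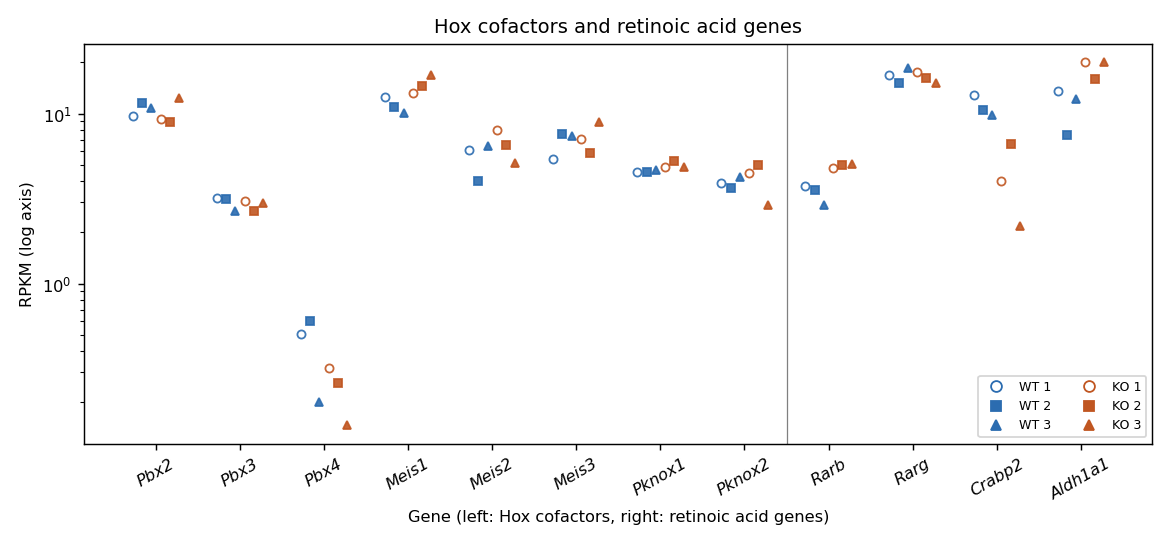
RPKM (log axis) of 8 of the 9 Hox cofactor genes and, right of the line, of 4 retinoic acid genes, 1 point per library. All cofactors shown but Pbx4 lie above 2 RPKM. Meis1, Pknox1, Rarb and Aldh1a1 are higher in every KO library than in any WT library, and Crabp2 is lower.

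Polycomb and trithorax genes, which keep Hox clusters off or on, were detected throughout, 23 of 23 in the table with at least 10 counts in every library, 16 estimates above 0 and 7 below, a median of 0.045 and 0 called. Ezh1, a histone methyltransferase, had 15.6 ± 0.516 RPKM in WT and 17.8 ± 2.56 in KO, and Phc2, a Polycomb repressive complex subunit, 16.3 ± 1.38 and 14.2 ± 1.49. Of 23 tested transcription factors of neural crest and outflow tract, 0 were called and 0 separated the groups, against 0% and 16.7% of all genes. Prrx1, a mesenchymal homeobox gene, had 20.2 ± 3.64 RPKM in WT and 18.8 ± 5.45 in KO. WT 2 and KO 3 were the highest libraries for 8 of 24 genes of this list that had counts (33.3%), against 22.2% of all genes tested. Among the 8 was Hand2, a factor of outflow tract and sympathetic neurons, with 6.16, 26.2 and 7.02 RPKM in WT 1 to 3 and 7.37, 6.54 and 48.0 in KO 1 to 3. Of 21 transcription factors of trunk and somite, 11 could be tested and 0 were called, and Pax7 and En1 had 0 counts in every library. Meox2 had 11.2 ± 2.23 RPKM in WT and 11.9 ± 1.56 in KO. All KO values lay above all WT values for 2 of the 11, against 8.33% of all genes tested. The same 2 had an unadjusted edgeR p under 0.05, against 8% of all genes. These were Shox2 (0.258 ± 0.131 RPKM in WT, 0.688 ± 0.304 in KO; log2 fold change 1.41, SE 0.51, edgeR adjusted p = 0.599) and Pax1 (0.328 ± 0.130 and 0.662 ± 0.156 RPKM; 1.02, SE 0.40, edgeR adjusted p = 0.617).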

How the data were processed

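Messenger RNA was sequenced from 6 arteries, 3 per genotype, each from a separate animal per the series design. The authors deposited unnormalized read counts for each gene, counted over mm9 exons by featureCounts 1.4.6-p4 per the file headers. Its command gave no option for strandedness, multi-mapping or read pairs, and reads over exons of more than 1 gene (0.347% to 0.448% of alignments) were left out. The submitters' processing notes also name STAR (as version 3.0), CASAVA, Subread and DESeq2.

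Sample titles gave the group and replicate number. KO was compared with WT in edgeR 4.0.16 under R 4.3.3 (quasi-likelihood test, TMM, filterByExpr with minimum count 10, two-sided, Benjamini-Hochberg over 15937 genes, threshold 0.05). SE was derived from the F statistic. CPM and RPKM are TMM-scaled, RPKM by the exon length in the table. No replicate pair agreed within sampling noise. The fit was tested on simulated counts for 15712 genes, with 2 false calls. Alternatives were other scalings, DESeq2 1.42.0, voom in limma 3.58.1, other filters, a replicate block, library sizes without Rn45s and Lars2 and each library left out. Leaving out both WT 2 and KO 3 was added after seeing the data.

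Named with values were the 3 Hox genes per cluster with the highest mean RPKM, the 8 with the smallest unadjusted p, the highest-numbered detected gene of each cluster, Col15a1, and in the other lists the 2 most abundant genes and the 2 of smallest p, of which some are given. Any other gene named was picked with its values known. The Hox genes and lists were chosen with earlier results of these data known. Marker lists are described by summed CPM. Promoter and miRNA sequences came from RefSeq tables on GRCm38.p6, and proteins were not used here. Results of some genes are not reported here.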

Additional observations from a re-analysis of the deposited data

How the results depend on the processing

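The count of Hox genes changed was 0 in all 17 fits, replicate block and single-library omissions included (0 to 0). In DESeq2 some Hox genes, Hoxc4 among them, had no adjusted p and could not be called. The count of genes changed was 0, but 63 in DESeq2 and 1 without both WT 2 and KO 3, and 0 to 0 with 1 library left out. Hox genes with non-overlapping groups numbered 3 of 20, but 2 under each of the 3 other scalings (Hoxd4 with Hoxb5, or with Hoxa5 for total counts), and 7 of 20 without both WT 2 and KO 3, where 40.6% of all genes did not overlap. Col15a1 passed the threshold in DESeq2 (-1.64). Of the alternative log2 fold changes for single Hox genes, 218 kept their direction and 26 reversed. Near 0, Hoxb2 was 0.054 in voom and 0.017 with the replicate block, Hoxb4 was -0.058 without both libraries, and Hoxb6 was -0.0084 with upper-quartile scaling, -0.012 with total counts and -0.10 without both. Hoxc6 was -0.074 in voom and -0.11 with the block, and Hoxc5 -0.87 and -0.88. With 1 library left out, log2 fold changes ran from -0.27 to 0.20 for Hoxb2, -0.13 to 0.14 for Hoxb4, -0.057 to 0.29 for Hoxb3, -1.87 to 3.13 for Hoxc4, -1.01 to 0.53 for Hoxc6, -2.93 to 1.33 for Hoxc5, -1.05 to 0.57 for Hoxd3, -0.068 to 1.4 for Hoxa9 and -0.30 to 0.68 for Hoxb6. For the reversals beyond the added omission the cause was not tested. The labels name no link between samples of the same replicate number. Deviations of same-numbered samples correlated at 0.43, -0.68 and -0.58, and the replicate block called 0 genes. Those of WT 2 and KO 3 correlated at 0.77, so these values cannot decide whether the numbers were paired. Depth limits what can be said of genes with few counts, such as those of groups 9 to 13 (at most 18 counts in any library).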
